A study of Saccharomyces cerevisiae with 24 samples.

Results

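Gene by gene, 6 RNA sequencing libraries of meiotic budding yeast were compared, 3 from cells whose only Pho92 carried the L35A substitution and 3 from cells with no Pho92 (pho92Δ). They were chosen by the sample titles out of 24 libraries in 8 groups of 3. Every strain was a MATa/alpha diploid that carried the hisG disruptions leu2::hisG, trp1::hisG and his3::hisG, the alleles ura3 and lys2, and ho::LYS2. In the L35A strain the genomic PHO92 was replaced (hyg::pho92) and an HA-tagged PHO92-L35A stood at TRP1 behind the copper-inducible CUP1 promoter (trp1::CUP1-HA-PHO92-L35A). In the pho92Δ strain PHO92 was deleted (pho92::HYG) and no construct was present. Cultures moved to sporulation medium, an acetate medium without nitrogen in which diploids enter meiosis, and all of them received 50 µM CuSO4 after 3 h there. How long after copper they were harvested is not stated in the labels. A further 3 groups are used beside these: CUP1-PHO92, which expresses the wild-type protein from the same construct, I39A, which has another alanine in the same segment (its genotype label reads L39A), and Δ35–42, which lacks residues 35 to 42. The unmodified wild type (WT) appears in the plots.

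Pho92 reads N6-methyladenosine (m6A) in mRNA through its YTH domain. The mark is laid in early yeast meiosis by a complex that includes Ime4, Mum2, Slz1 and Kar4. It is known to speed the decay of marked transcripts and to act through the CCR4-NOT deadenylase. Its YTH domain lies toward the C terminus, and the N-terminal part that holds residue 35 is intrinsically disordered. Yeast meiosis runs through entry (IME1, IME2), recombination, and then the NDT80 programme, in which the transcription factor Ndt80 turns on the genes of the divisions and of spore formation.

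The changed site is shown because the substitution defines the group. These are codons 29 to 48 of PHO92 (YDR374C) in the RefSeq assembly R64, at chrIV:1224251-1224310 on the minus strand, out of 306 codons for amino acids. In the first line capitals mark codon 35 (CTA, leucine), which L35A turns to alanine, and in the second they mark codons 35 to 42, the segment missing from Δ35–42.
PHO92 codon 35: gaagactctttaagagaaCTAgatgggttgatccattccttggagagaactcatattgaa
PHO92 codons 35 to 42: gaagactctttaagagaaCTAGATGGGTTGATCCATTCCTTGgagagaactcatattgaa

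The labels give the molecule as polyA RNA. The deposited table held whole-number counts for 6157 features, and 5698 passed the filter on low counts. Totals ran from 19899096 to 24707874 counts in the L35A libraries and from 18825170 to 26144192 in the pho92Δ libraries. All 6 carried the same batch letter in the table's header, and each group had a single strain number there, so a difference between groups cannot be told apart from a difference between strains. The labels do not say that replicates were separate cultures, so p-values measure a spread between samples of the same group that may be technical. It was estimated over all 24 libraries in 8 groups. These include L38P and W177A, the groups that hold the libraries with another batch letter. Levels below are CPM, counts scaled to library size with TMM factors. Differences are log2 fold changes of L35A over the other group from edgeR's quasi-likelihood test. They are given with a standard error (SE) and a Benjamini-Hochberg adjusted p over all 5698 features. The SE was derived from the test, as the absolute log2 fold change divided by the square root of the F statistic. "Rose" and "fell" mark an adjusted p under 0.05.

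The libraries of 1 group did not sit together. Along the axis on which libraries of the same group differed most, which carried 35.7% of the variance within groups, the 3 L35A libraries scored -19.5, -32.9 and -0.81, and the 3 pho92Δ libraries scored 10.3, 10.8 and 21.9. Replicate 2 of L35A was thus the farthest from pho92Δ and replicate 3 the nearest. The 6 middle meiosis markers (NDT80, SPS1, SMK1, CLB1, SPO21, SPS4) summed to 1691 to 6108 CPM in L35A, against 381 to 586 CPM in pho92Δ, and all 6 rose. The 6 early meiosis markers summed to 14120 to 15978 CPM in L35A and 11888 to 13090 CPM in pho92Δ. Of these, ZIP1 and IME2 rose and SPO11, REC8, HOP1 and DMC1 did not pass the test. Late spore wall markers summed to 486 to 1722 CPM in L35A and 123 to 198 CPM in pho92Δ, haploid markers to 70.0 to 90.9 CPM in L35A and 43.2 to 58.6 CPM in pho92Δ, and proliferating G1 markers to 54.8 to 59.1 CPM in L35A and 74.5 to 80.3 CPM in pho92Δ. Of the haploid markers, the pheromone receptor gene STE3 rose by 0.94 (adjusted p 0.0191) and the alpha-factor gene MF(ALPHA)1 by 0.74 (adjusted p 0.0473), STE2, BAR1 and MFA1 did not pass, and MFA2 was not tested. The a-factor genes MFA1 and MFA2 stayed at or below 0.50 CPM in all 6 libraries. In bulk RNA, fewer cells of a stage and less RNA per cell cannot be told apart, and the part of stage in the differences below was not tested beyond the fits named there.

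PHO92 itself matched the labels. It had 11547, 10789 and 9771 CPM in the L35A libraries, from 222706, 194473 and 243415 counts. The pho92Δ libraries held 1, 14 and 1 counts. In replicates 1 and 3 of pho92Δ this lies under the floor of 3 counts per library, so no fold is given. Expression in L35A was far above the WT level of 848, 924 and 804 CPM, so the construct made more PHO92 RNA than the native gene; protein was not measured. TRP1, the marker at the integration site, had 16.0, 16.5 and 16.3 CPM in L35A and 23.9, 21.8 and 19.5 CPM in pho92Δ (log2 fold change -0.42, SE 0.199, adjusted p 0.141).

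Cells with Pho92 L35A differed from cells with no Pho92 in 1199 features, 21% of those tested. Genes for spore formation and the meiotic divisions were the most raised, most proteasome genes rose by a smaller amount, most cytosolic ribosomal protein genes fell, and so did 37 of 83 ribosome biogenesis genes and 32 of 63 amino acid genes. The counts were 562 higher (9.86%) and 637 lower (11.2%), and 1984 features had an unadjusted p under 0.05. The increases were larger than the decreases: 160 features rose and 125 fell by at least 1 on the log2 scale, and 83 rose and 0 fell by at least 2. The median over all features tested was -0.01. In 1185 of the 1199 the L35A and pho92Δ libraries did not overlap, and among all features tested 21.8% had every L35A library above every pho92Δ library and 21.8% every one below. The total depended on single libraries: it was 296 (81 higher, 215 lower) without L35A replicate 2, 627 without L35A replicate 1, 641 without pho92Δ replicate 3 and 693 without pho92Δ replicate 1. With the library scores on the within-group axis as a covariate, which also takes up group differences along that axis, it was 56 (16 higher, 40 lower).

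**Figure D1:**
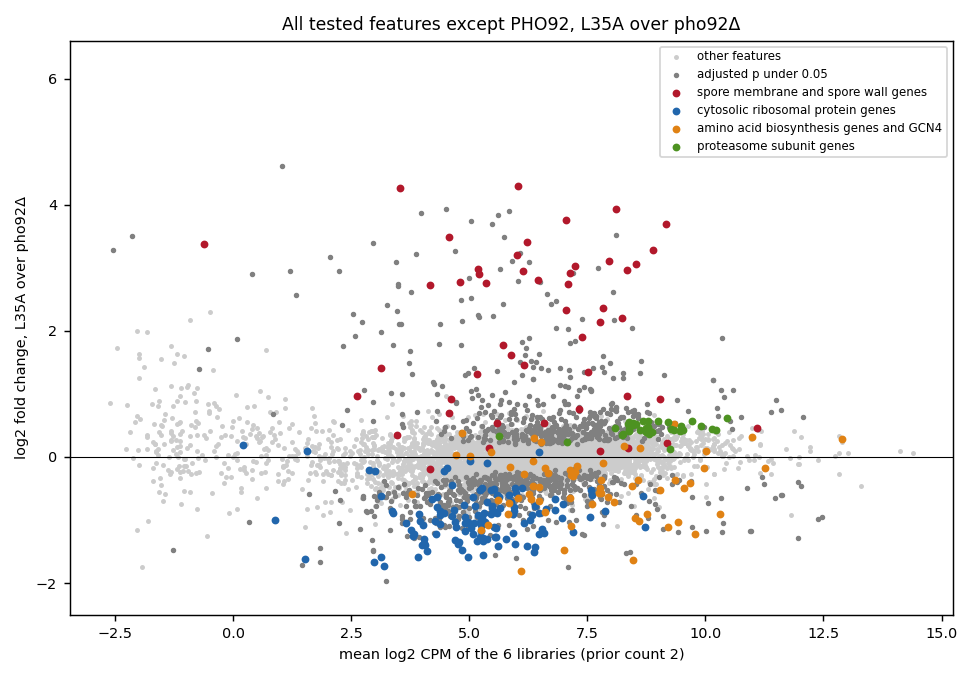
Log2 fold change of L35A over pho92Δ (vertical axis) against the mean log2 CPM of the 6 libraries (horizontal axis) for each tested feature except PHO92; dark grey points have an adjusted p under 0.05. Spore membrane and spore wall genes (red) reach 4.29, cytosolic ribosomal protein genes (blue) lie mostly below 0, amino acid genes (orange) reach -1.82, and proteasome genes (green) form a tight cloud around 0.45.

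Spore formation genes carried the largest increases. Of 49 genes for the spore membrane and spore wall, 39 rose and 0 fell, with a list median of 2.33. Of 28 genes for NDT80 and the meiotic divisions, 18 rose and 0 fell, with a median of 0.75. The 3 L35A libraries contributed unevenly. For the spore list the median difference from the pho92Δ mean was 2.15, 3.05 and 1.34 in L35A replicates 1, 2 and 3. For the division list it was 0.70, 1.14 and 0.43 in those replicates.

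NDT80, the transcription factor of the middle genes, had 670.0, 972 and 451 CPM in L35A, against 258, 278 and 194 CPM in pho92Δ. Every L35A library lay above every pho92Δ library, and NDT80 rose by 1.52 (SE 0.48, adjusted p 0.0302). The call was lost in 5 of 6 leave-one-out fits. SUM1, the repressor that competes with Ndt80 at its sites, had 147, 141 and 165 CPM in L35A and 123, 121 and 136 CPM in pho92Δ and did not pass the test (0.25, SE 0.123, adjusted p 0.148).

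CDC5, the polo kinase of the exit from pachytene, had 712, 1119 and 288 CPM in L35A and 116, 119.9 and 109 CPM in pho92Δ, and rose by 2.62 (SE 0.524, adjusted p 0.00318). SSP1, which forms the leading edge of the growing spore membrane, had 419, 686 and 191 CPM in L35A and 58.9, 66.4 and 46.5 CPM in pho92Δ, and rose by 2.92 (SE 0.588, adjusted p 0.00331). For both genes the lowest L35A library, replicate 3, was still more than the highest pho92Δ library. MIP6 rose by 2.19 (SE 0.437, adjusted p 0.00318). The B-type cyclin CLB1 rose by 2.22 (adjusted p 0.0125), and CDC20, the activator of the anaphase-promoting complex, by 1.73 (adjusted p 0.00916). CDC14, the phosphatase of mitotic and meiotic exit, moved less, at 192, 213 and 170.5 CPM in L35A and 129, 138 and 142 CPM in pho92Δ (0.50, SE 0.104, adjusted p 0.00433). In the same list the cohesin subunit gene REC8 (-0.04, adjusted p 0.815), IPL1 (0.01, adjusted p 0.967) and ESP1 (0.11, adjusted p 0.474) did not pass.

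Spore genes led the highest fold changes among called features with at least 10 CPM and groups that did not overlap. SPR2 had 245, 627 and 124 CPM in L35A and 20.6, 21.1 and 9.36 CPM in pho92Δ, and rose by 4.29 (SE 0.983, adjusted p 0.00646). SMA2, needed to assemble the prospore membrane, had 49.0, 105 and 17.5 CPM in L35A and 3.37, 3.71 and 1.94 CPM in pho92Δ, and rose by 4.26 (SE 0.898, adjusted p 0.00434). SPS4 had 2040, 3858 and 933 CPM in L35A and 210, 205 and 113 CPM in pho92Δ, and rose by 3.69 (SE 0.921, adjusted p 0.0097). In these 3 genes replicate 2 was the highest of L35A and replicate 3 was the lowest in both groups. SMK1, the MAP kinase of spore wall assembly, rose by 3.84 (adjusted p 0.00646), PFS1 by 3.93 (adjusted p 0.00518), SPS2 by 3.92 (adjusted p 0.00708) and SPO19 by 3.75 (adjusted p 0.00592). The remaining members of the 12 highest were RRT5 (3.51) and 4 genes known by systematic names, YPR078C (3.91), YKR015C (3.86), YFL040W (3.74) and YNL019C (3.69); 96.2% of the 31-base words of YNL019C recur elsewhere in R64, so its counts may belong in part to a copy.

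Genes of the spore's outer layers split. SPO75 rose by 2.98 (adjusted p 0.00279), MUM3, needed for the outer spore wall, by 2.95 (adjusted p 0.00378) and the chitin deacetylase gene CDA2 by 2.97 (adjusted p 0.00858). Of the dityrosine genes, which make the last spore wall layer, DIT2 rose by 1.42 (adjusted p 0.0123), while DIT1 had 33.5, 30.1 and 27.0 CPM in L35A and 21.3, 18.6 and 16.3 CPM in pho92Δ and missed the threshold (0.69, adjusted p 0.0656). SPS100, a gene of late spore wall maturation, had 16.1, 17.8 and 16.5 CPM in L35A and 19.3, 19.1 and 19.0 CPM in pho92Δ (-0.19, adjusted p 0.113).

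Without L35A replicate 2, the library farthest along the within-group axis, 14 of the 49 spore genes and 6 of the 28 division genes rose, with medians of 1.81 and 0.56. With the axis as a covariate 1 spore gene and 0 division genes rose, with medians of 0.39 and 0.20.

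Sequence before the start codons of these genes is shown because many of them share the core of the middle sporulation element, the DNA site of Ndt80. The letters CACAAAA, searched on both strands in the 300 bases before the annotated start codon, were found in 59.2% of the spore genes and 25.0% of the division genes, against 8.22% of 5489 tested genes with such a window. The 3 windows below belong to the called members with the smallest p that hold it; capitals mark the match, and all positions are RefSeq R64, since the deposited table gives none. They lie at chrXIII:271258-271287 (minus strand), chrVIII:472638-472667 (plus strand) and chrXV:875464-875493 (plus strand).
CDC5: tattttttgtaCACAAAAacattggctttc
SSP1: caaacaggcgaCACAAAAtcatgaagtcag
MUM3: gcatgtagcgaCACAAAAtgaaaaattgaa

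**Figure D2:**
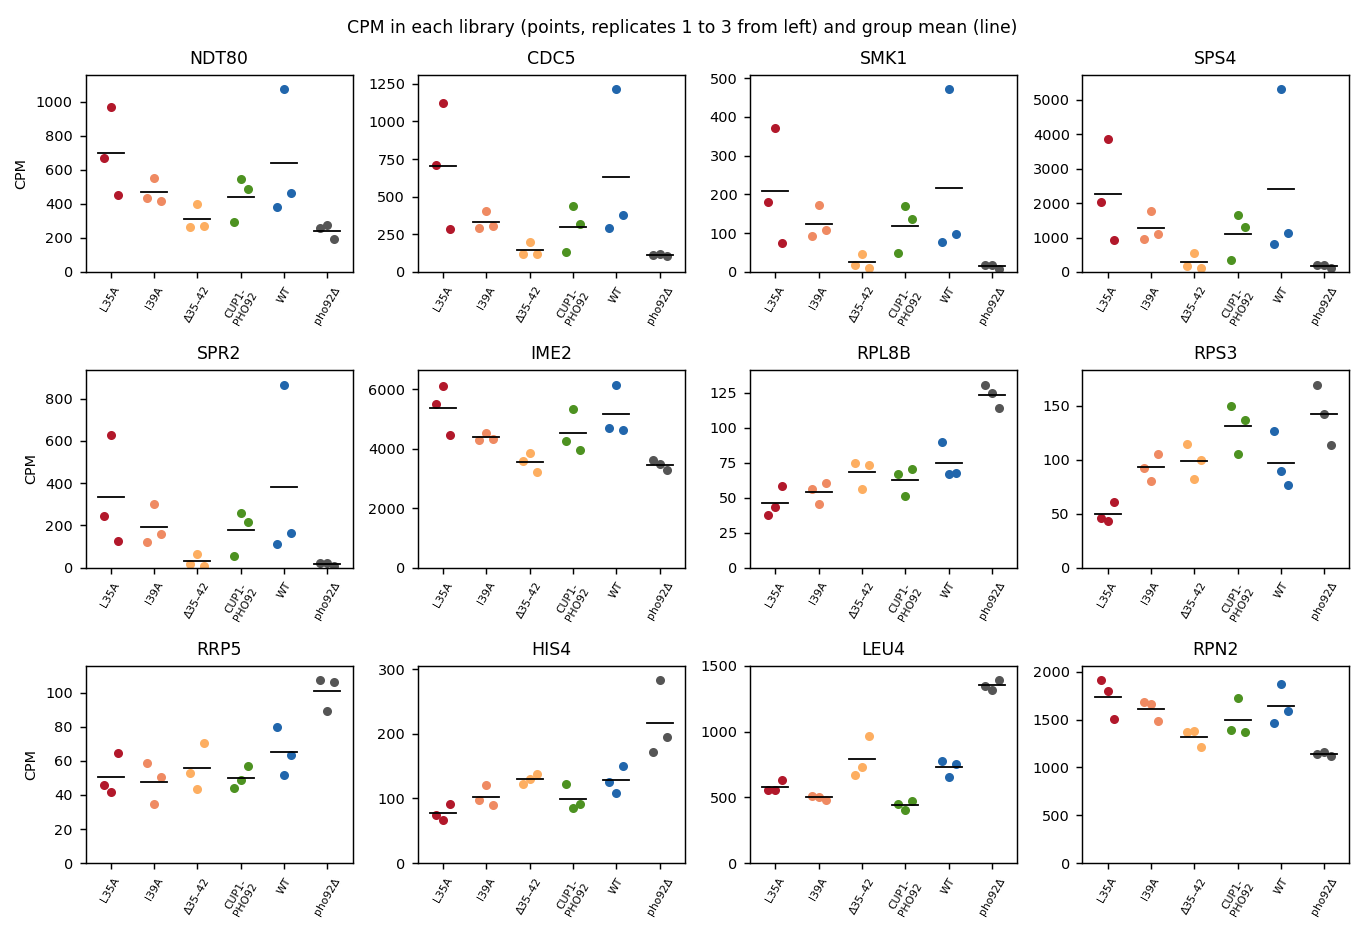
CPM of 12 genes (linear vertical axes) in the libraries of 6 groups on the horizontal axis; points are replicates 1 to 3 from left to right and lines are group means. NDT80, CDC5, SMK1, SPS4 and SPR2 are highest in replicate 2 of L35A and of WT, and in RPL8B, RPS3, RRP5, HIS4 and LEU4 every L35A point is below every pho92Δ point.

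Earlier meiotic genes moved less, by list median, than the spore and division genes. IME1, the master regulator of entry, had 4185, 4210 and 3645 CPM in L35A and 4099, 4003 and 3972 CPM in pho92Δ, with no detectable difference (-0.00, SE 0.176, adjusted p 0.989). IME2, the kinase that follows it, had 5510, 6121 and 4444 CPM in L35A and 3619, 3499 and 3276 CPM in pho92Δ, and rose by 0.63 (SE 0.171, adjusted p 0.0148). RME1, a repressor of IME1, had 17.8, 15.9 and 15.7 CPM in L35A and 25.3, 24.1 and 24.9 CPM in pho92Δ, and fell by 0.59 (SE 0.178, adjusted p 0.0252). The groups did not overlap for IME2 and RME1 and did for IME1. MCK1, a kinase that promotes IME1 expression, rose by 0.27 (SE 0.0721, adjusted p 0.0141). RIM4, the RNA-binding protein that holds back translation of late messages, did not pass (0.33, SE 0.162, adjusted p 0.156). Of 16 entry regulators 2 rose and 1 fell, beside 9.86% of all features called higher and 11.2% called lower. In 7 of the 16 every L35A library lay above every pho92Δ library, and in 1 every one lay below. Over all features tested 21.8% lay above in this way and 21.8% below. The fall of RME1 was lost in all 6 leave-one-out fits and with the axis covariate. Leaving out L35A replicate 1 or L35A replicate 2 left 0 of the calls, and the number that rose was 4 without L35A replicate 3 and 1 without pho92Δ replicate 1 or pho92Δ replicate 3.

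Of 37 recombination and synaptonemal complex genes, 5 rose and 0 fell, with a median of 0.20. Calls here stand beside 9.86% of all features called higher and 11.2% called lower. In 23 of them every L35A library lay above every pho92Δ library, and in 2 every one lay below. Among all features tested each share was 21.8%. ZIP1, the central filament of the synaptonemal complex, had 1644, 1479 and 1522 CPM in L35A and 951, 1021 and 1005 CPM in pho92Δ (0.64, SE 0.195, adjusted p 0.0258). CST9, the Zip3 crossover factor, rose by 0.49 (SE 0.136, adjusted p 0.016), HED1 by 0.43 (SE 0.128, adjusted p 0.023) and SKI8, which serves both double-strand break formation and RNA decay, by 0.29 (SE 0.0844, adjusted p 0.0217). The count was 0 without L35A replicate 2 and without pho92Δ replicate 3, 1 without pho92Δ replicate 1, 2 without L35A replicate 1, and 14 when the fit held only the 6 libraries compared. Of 35 genes of premeiotic DNA replication 1 rose and 5 fell, again beside 9.86% of all features called higher and 11.2% called lower. CLB6, an S-phase cyclin, rose by 1.497 (adjusted p 0.0125). POL30, the sliding clamp, fell by 0.72 (adjusted p 0.00609), RAD27 by 0.75 (adjusted p 0.0256) and PRI2 by 0.36 (adjusted p 0.0298). Without L35A replicate 1, L35A replicate 2 or pho92Δ replicate 3 the number that fell was 1, and without pho92Δ replicate 1 it was 3.

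The m6A writer was measured through 6 genes. IME4, the methyltransferase, had 274, 259.8 and 256 CPM in L35A and 249, 252 and 246 CPM in pho92Δ (0.08, SE 0.0811, adjusted p 0.499); an annotated RNA overlaps it on R64, and since the strand setting of the counting is not given in the sources used here, reads of the pair cannot be told apart. MUM2 did not pass either (0.05, SE 0.102, adjusted p 0.748). SLZ1 had 1779, 2169 and 1498 CPM in L35A and 1270.0, 1312 and 1072 CPM in pho92Δ, and rose by 0.58 (SE 0.189, adjusted p 0.0358). KAR4 rose by 0.39 (SE 0.134, adjusted p 0.0421). Both calls were lost in 5 of the 6 fits without a library, and SLZ1 stood at -0.03 with the axis covariate.

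Calls among genes of mRNA decay are given beside the 21% of all features called in either direction. Of 11 CCR4-NOT subunits and partners, CAF40 rose by 0.45 (SE 0.0974, adjusted p 0.00526) and CAF16 fell by 0.62 (SE 0.121, adjusted p 0.00279), at 27.7, 29.6 and 27.5 CPM in L35A and 43.9, 45.9 and 40.5 CPM in pho92Δ. The catalytic subunit gene CCR4 had 266, 231 and 260.4 CPM in L35A and 235, 242 and 259 CPM in pho92Δ, with overlapping groups (0.04, adjusted p 0.829). Of 25 decapping, 5′ decay and PAN factors, EDC2, a decapping enhancer, rose by 1.43 (SE 0.323, adjusted p 0.00627), and the rest did not pass. The EDC2 values of 133, 211 and 76.1 CPM in L35A and 48.3, 55.0 and 52.5 CPM in pho92Δ followed the order of the spore genes within L35A. The EDC2 call was lost without L35A replicate 2 and with the axis covariate, and the CAF40 call with the axis covariate.

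Genes for cytosolic ribosomal proteins were lower as a block. Of 126, 0 rose and 111 fell, with a median of -0.98. In 116 of the 126 all L35A libraries lay below all pho92Δ libraries. They took 0.414%, 0.423% and 0.545% of the counts in L35A and 1.02%, 0.898% and 0.813% in pho92Δ. The median difference from the pho92Δ mean was -1.14, -1.05 and -0.77 in L35A replicates 1, 2 and 3.

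RPL8B had 37.7, 43.1 and 58.3 CPM in L35A and 131, 125 and 114 CPM in pho92Δ, and fell by 1.41 (SE 0.196, adjusted p 0.000394). RPL20B had 27.6, 26.5 and 35.3 CPM in L35A and 90.6, 79.3 and 69.0 CPM in pho92Δ, and fell by 1.42 (SE 0.196, adjusted p 0.000394). RPS1A fell by 1.21 (SE 0.178, adjusted p 0.000579). These genes of the large and the small subunit also fell in all 6 leave-one-out fits and with the axis covariate. Among the 12 lowest features were RPS9A (-1.73), RPS12 (-1.59), RPL37A (-1.59), RPS17B (-1.59) and RPL1B (-1.56).

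Many ribosomal genes have near-identical copies, and reads between copies can be split by the counting. Of the 126, 24 had more than 20% of their 31-base words elsewhere in R64, RPL1B among them at 87.7%; of the other 102, 91 fell. Among the members that did not pass were RPL41A (0.19), RPL41B (0.09), RPL39 (-0.22), RPL29 (-0.18), RPS30A (-0.07) and RPS28B (-0.20). Leave-one-out fits called 81 to 107. With the axis covariate it was 7, with a median of -0.71.

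Of 83 ribosome biogenesis genes, 0 rose, 37 fell and 46 did not pass, with a median of -0.60. RRP5, an early processing factor, had 45.6, 41.5 and 64.6 CPM in L35A and 107, 89.4 and 106 CPM in pho92Δ (-0.998, SE 0.212, adjusted p 0.00458). NUG1, a GTPase of the large subunit, had 61.9, 56.5 and 74.7 CPM in L35A and 119, 102 and 108 CPM in pho92Δ (-0.77, SE 0.15, adjusted p 0.00283). In both genes replicate 3 was the highest of L35A and still below every pho92Δ library. NOP15 fell by 0.70 (SE 0.146, adjusted p 0.00396), ARX1 by 0.62 (SE 0.145, adjusted p 0.00679) and the nucleolin gene NSR1 by 1.56 (SE 0.419, adjusted p 0.0143). The number that fell was 66 with the replicate block, 68 without L35A replicate 3, 14 without pho92Δ replicate 1 or pho92Δ replicate 3, 12 without L35A replicate 1 and 4 without L35A replicate 2. With the axis covariate it was 0 and the median -0.04.

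The PAC letters GCGATGAG, known from promoters of these genes, stood within 300 bases of the start codon in 57.8% of the list against 4.41% of all tested genes. The 3 called members with the smallest p that hold it are shown, with the match in capitals, at chrV:162607-162636 (plus), chrIII:23464-23493 (minus) and chrV:414294-414323 (minus).
NUG1: tttcgagcgagGCGATGAGatgagctaatt
KRR1: taattcttttaGCGATGAGatatgaaaatt
NSA2: ttttccggacaGCGATGAGatgcactttta

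Of 74 mitochondrial ribosomal protein genes 11 rose, 0 fell and 63 did not pass, with a median of 0.14, beside the 9.86% of all features called higher. NAM9 had 88.9, 95.3 and 86.1 CPM in L35A and 67.9, 62.7 and 66.7 CPM in pho92Δ, and rose by 0.45 (SE 0.0748, adjusted p 0.00109). MRPS17 rose by 0.87 (SE 0.204, adjusted p 0.00726), MRPL10 by 0.35 (adjusted p 0.00646) and MRPL13 by 0.28 (adjusted p 0.00609). The count was 3 without L35A replicate 2, 5 without pho92Δ replicate 2, 7 without L35A replicate 1, pho92Δ replicate 1 or pho92Δ replicate 3, and 1 with the axis covariate.

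Of 63 amino acid biosynthesis genes, 32 fell, 30 did not pass and 1, the aromatic aminotransferase gene ARO9 (0.52), rose, with a median of -0.48. HOM3, aspartate kinase, had 26.3, 26.9 and 59.9 CPM in L35A and 115, 138 and 147 CPM in pho92Δ, and fell by 1.82 (SE 0.363, adjusted p 0.00318). LEU4, the first enzyme of leucine synthesis, had 554, 553.6 and 631 CPM in L35A and 1349, 1319 and 1391 CPM in pho92Δ, and fell by 1.22 (SE 0.194, adjusted p 0.000901). HIS4 had 75.0, 66.1 and 91.4 CPM in L35A and 172, 283 and 195 CPM in pho92Δ, and fell by 1.481 (SE 0.186, adjusted p 0.000212). In LEU4 and HIS4 every L35A library was below every pho92Δ library. HOM3, among the 12 lowest features, was named by a rule that required this.

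TRP5 fell by 0.47 (SE 0.076, adjusted p 0.00109). ARG1 (-1.11), ARG4 (-1.02), HIS1 (-1.16), ARO1 (-0.97) and ASN1 (-1.10) also fell. ARO5 (YGL117W), which the lists did not hold, fell by 1.604 (SE 0.252, adjusted p 0.000816). GCN4, the transcription factor of this pathway, which is controlled mainly in translation, had 2198, 2561 and 2232 CPM in L35A and 2825, 2876 and 2201 CPM in pho92Δ (-0.18, SE 0.139, adjusted p 0.378). Its groups overlapped. The number that fell was 14 without L35A replicate 2, 18 without L35A replicate 1 and 2 with the axis covariate, which kept HIS4 and TRP5.

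The Gcn4 letters TGACTC were found within 300 bases of the start codon in 60.3% of the list and in 8.02% of all tested genes. Windows of the 2 called members with the smallest p that hold them follow, with the match in capitals, at chrIII:68515-68544 and chrXIV:426838-426867, both on the minus strand.
HIS4: acccatgcacagTGACTCacgtttttttat
LEU4: cttacgtgtaagTGACTCagttctttcaaa

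Of 34 proteasome subunit genes, 24 rose, 0 fell and 10 did not pass, with a median of 0.45 and a range of 0.13 to 0.61. In 32 of the 34 every L35A library lay above every pho92Δ library. RPN2, a scaffold of the regulatory particle base, had 1911, 1798 and 1509.5 CPM in L35A and 1135, 1162 and 1119 CPM in pho92Δ (0.61, SE 0.156, adjusted p 0.0111). RPN11, the deubiquitinase of the lid, had 451, 449 and 376 CPM in L35A and 302, 305 and 272 CPM in pho92Δ (0.54, SE 0.113, adjusted p 0.00432). RPN4, their transcription factor, was not among the called genes, at 588, 518 and 403 CPM in L35A and 376, 382 and 339 CPM in pho92Δ (0.46, SE 0.168, adjusted p 0.0572). The number that rose was 1 without L35A replicate 2, 3 without pho92Δ replicate 3, 6 without L35A replicate 1, 13 without pho92Δ replicate 1, 15 without pho92Δ replicate 2 and 0 with the axis covariate, where the median was 0.04.

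The proteasome-associated control element GGTGGCAAA, the site of Rpn4, was present in 79.4% of these genes and in 1.28% of all tested genes. Windows of the 3 called members with the smallest p that hold it are given at chrVI:153259-153288 (plus), chrXVI:742290-742319 (plus, where the match runs on the opposite strand and reads TTTGCCACC) and chrIX:220800-220829 (minus).
RPN11: ggacctccaaGGTGGCAAAttcacaagaaa
RPN7: ataagttaagTTTGCCACCcattgaggatt
RPN2: atttattttcGGTGGCAAAactggatacat

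**Figure D3:**
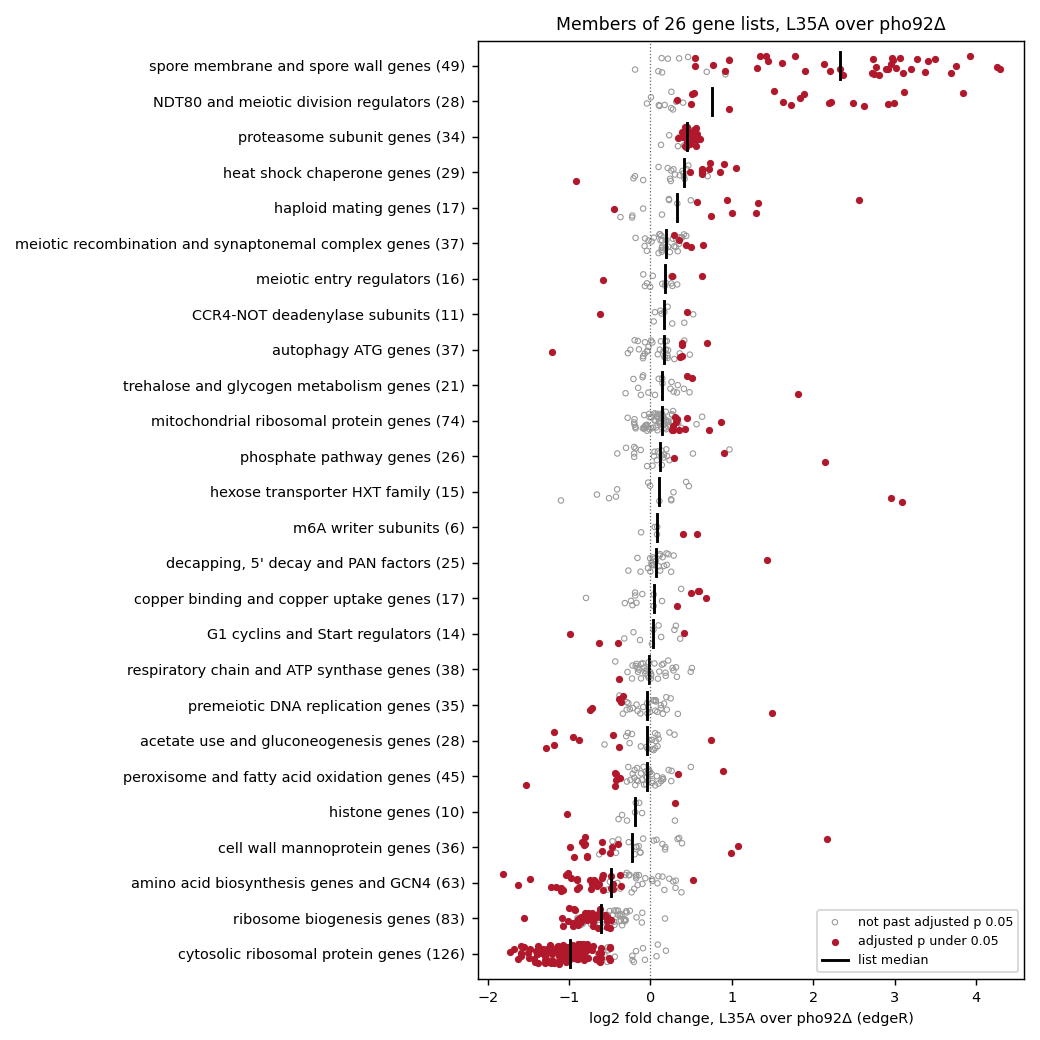
Log2 fold change of L35A over pho92Δ (horizontal axis) for the tested members of 26 gene lists (rows, with the number tested); filled red points have an adjusted p under 0.05 and black bars are list medians. Medians run from 2.33 for spore membrane and spore wall genes to -0.98 for cytosolic ribosomal protein genes.

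Of 29 chaperone genes, 9 rose, 1 fell and 19 did not pass, with a median of 0.41. HSP42, a small heat shock protein, had 1105, 1151 and 835 CPM in L35A and 636, 681 and 550.4 CPM in pho92Δ (0.73, SE 0.165, adjusted p 0.00631). HSP60, the mitochondrial chaperonin, rose by 0.63 (SE 0.105, adjusted p 0.00112) and HSP82, an Hsp90, by 0.72 (SE 0.172, adjusted p 0.00796). The exception, SSB1, encodes the Hsp70 that sits on ribosomes. SSB1 had 157, 142 and 208 CPM in L35A and 338, 322 and 297 CPM in pho92Δ, and fell by 0.92 (SE 0.15, adjusted p 0.00109). The number that rose was 14 with the replicate block, 1 without L35A replicate 2, 4 without pho92Δ replicate 1 or pho92Δ replicate 3, 5 without L35A replicate 1, and 0 with the axis covariate. HSP82 and SSB1 have close paralogs, and copies can share reads.

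Of 36 cell wall mannoprotein genes 3 rose and 13 fell, with a median of -0.23. Among all features tested 9.86% rose and 11.2% fell. PST1 had 430, 376 and 396 CPM in L35A and 863, 654 and 779 CPM in pho92Δ, and fell by 0.93 (SE 0.122, adjusted p 0.00026). CRH1, a chitin transglycosylase, had 279, 239 and 266 CPM in L35A and 466, 417 and 466 CPM in pho92Δ, and fell by 0.78 (SE 0.118, adjusted p 0.000591). CCW14 had 594, 581 and 592 CPM in L35A and 803, 777 and 747 CPM in pho92Δ, and fell by 0.40 (SE 0.0776, adjusted p 0.00284). The spread within L35A was small for these genes, which did not follow the order of the spore genes. CWP1 (2.17), TIR1 (1.07) and TIR2 (0.99) rose. The number that rose was 0 without L35A replicate 2, pho92Δ replicate 2 or pho92Δ replicate 3 and with the axis covariate, 1 without L35A replicate 1 and 2 without pho92Δ replicate 1. The number that fell was 4 without L35A replicate 2, 5 without pho92Δ replicate 1, 7 without pho92Δ replicate 2 and 5 with the axis covariate. PST1, CRH1, CCW14 and YPS6 passed the test in each of these fits.

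Carbon genes changed in some members, beside 9.86% of all features called higher and 11.2% called lower. Of 28 acetate and gluconeogenesis genes, 1 rose and 7 fell, with a median of -0.04. CIT3, a mitochondrial citrate and methylcitrate synthase, had 2764, 2440.3 and 2513 CPM in L35A and 6668, 5514 and 6673 CPM in pho92Δ, and fell by 1.29 (SE 0.196, adjusted p 0.000591). ACS2, acetyl-CoA synthetase, had 429, 384 and 570.03 CPM in L35A and 995, 1051 and 1095 CPM in pho92Δ, and fell by 1.18 (SE 0.176, adjusted p 0.000591). YAT1, a carnitine acetyltransferase, fell by 1.18 (SE 0.184, adjusted p 0.00073). For CIT3 and ACS2 the groups did not overlap. PCK1, the gluconeogenic PEP carboxykinase, rose by 0.75 (SE 0.182, adjusted p 0.00858), at 4619, 4134 and 3490.2 CPM in L35A and 2676, 2762 and 1857 CPM in pho92Δ. The number that fell was 3 without L35A replicate 2, 4 without L35A replicate 3 or pho92Δ replicate 1, and 2 with the axis covariate. Of 45 peroxisome and fatty acid genes, 2 rose and 6 fell, and FAT3 had the largest drop, at 288, 191 and 117 CPM in L35A and 526, 364 and 824 CPM in pho92Δ (-1.53, SE 0.445, adjusted p 0.0211). FAT3 was lost without L35A replicate 2, L35A replicate 3 or pho92Δ replicate 3 and with the axis covariate. The number that fell in this list was 2 without L35A replicate 3 or any single pho92Δ library, and 3 without L35A replicate 1 and with RLE scaling. Of 21 trehalose and glycogen genes, 3 rose and 0 fell: the sporulation glucoamylase gene SGA1 by 1.82 (adjusted p 0.0217), TPS1 by 0.51 (adjusted p 0.0234) and NTH2 by 0.45 (adjusted p 0.0166). Without L35A replicate 2 the peroxisome and trehalose lists had 0 called members, and the trehalose count was also 0 without pho92Δ replicate 1 or pho92Δ replicate 3, 1 without L35A replicate 1 or pho92Δ replicate 2, and 6 without L35A replicate 3. Of 38 genes of the respiratory chain only the NADH dehydrogenase gene NDE2 was called, lower by 0.38 on the log2 scale (log2 fold change -0.38, adjusted p 0.0156). This call was lost in 4 of 6 leave-one-out fits, with only the 6 libraries and with the axis covariate.

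Some copper uptake genes rose, beside 9.86% of all features called higher and 11.2% called lower. CTR1, the plasma membrane copper transporter, had 71.0, 73.6 and 79.6 CPM in L35A and 45.5, 49.8 and 44.0 CPM in pho92Δ, and rose by 0.69 (SE 0.171, adjusted p 0.00947). CTR3 rose by 0.59 (adjusted p 0.0331), and the reductase genes FRE1 and FRE7 rose by 0.60 (adjusted p 0.0275) and 0.50 (adjusted p 0.0197). The metallothionein gene CUP1-1, whose promoter drives the construct, had 1085, 1055 and 920.4 CPM in L35A and 1081, 992 and 903 CPM in pho92Δ (0.04, SE 0.224, adjusted p 0.917). In all, 5 of 17 copper genes rose and 0 fell, with a list median of 0.04 and a range of -0.79 to 0.69. The count was 1 without L35A replicate 2, pho92Δ replicate 1 or pho92Δ replicate 3, 2 without L35A replicate 1, and 0 with the axis covariate. Leave-one-out fits lost CTR3 in 5 cases, FRE1 in 4 and FRE7 in 3. FRE7 was also lost with only the 6 libraries.

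Mating and cell cycle calls are set beside 9.86% of all features called higher and 11.2% called lower. Of the mating and cell cycle calls, FAR1 was the one kept with the axis covariate. FAR1, a cyclin-dependent kinase inhibitor, had 20.9, 24.6 and 20.0 CPM in L35A and 9.31, 9.25 and 7.77 CPM in pho92Δ, and rose by 1.32 (SE 0.191, adjusted p 0.000535), also in each fit without a library and with the axis covariate. STE4 and STE18, the beta and gamma subunits of the pheromone G protein, rose by 1.29 (adjusted p 0.0158) and 2.56 (adjusted p 0.017), while GPA1, the alpha subunit, fell by 0.45 (adjusted p 0.013). FIG1 rose by 1.004 (adjusted p 0.0165). Of 17 haploid mating genes 7 rose and 1 fell; without L35A replicate 2, or without pho92Δ replicate 3, 1 rose and 0 fell, without L35A replicate 1 4 rose and 1 fell, and STE4 stood at -0.01 with the axis covariate. CLN1, a G1 cyclin, had 15.2, 13.0 and 15.7 CPM in L35A and 29.7, 29.3 and 28.02 CPM in pho92Δ, and fell by 0.99 (SE 0.162, adjusted p 0.00109). PCL1 fell by 0.64 (adjusted p 0.0197) and SIC1 by 0.39 (adjusted p 0.0312), and CDC28 rose by 0.41 (adjusted p 0.0279), which makes 1 higher and 3 lower of 14 genes; the number that fell was 1 or 2 in each leave-one-out fit.

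Calls in the remaining lists are given beside the 9.86% of all features called higher and the 11.2% called lower. Of 26 phosphate genes 3 rose: PHM6 by 2.14 (adjusted p 0.00624), VTC5 by 0.90 (adjusted p 0.00642) and VTC4 by 0.29 (adjusted p 0.0302). Of 15 hexose transporter genes HXT14 (3.09, adjusted p 0.00873) and HXT10 (2.95, adjusted p 0.0356) rose. HXT14 had 213, 428 and 104 CPM in L35A and 33.7, 34.6 and 19.2 CPM in pho92Δ, in the order of the spore genes, whereas HXT10 was highest in L35A replicate 3, at 6.69, 11.54 and 23.1 CPM in L35A and 2.47, 1.56 and 1.33 CPM in pho92Δ. Of 37 ATG genes 5 rose, among them ATG3 (0.69), ATG18 (0.39) and ATG45 (0.39), and ATG41 fell by 1.21 (adjusted p 0.0145); the replicate block called 10 higher, and leave-one-out fits called 1 to 10 higher. Of 10 histone genes HTA2 fell by 1.03 (adjusted p 0.00598) and the linker histone gene HHO1 rose by 0.31 (adjusted p 0.026). The HHO1 call was lost in 5 of 6 leave-one-out fits, with only the 6 libraries and with the axis covariate, and that of HTA2 with the axis covariate. Without L35A replicate 2 no phosphate or hexose transporter gene was called, and HXT calls numbered 1 higher without L35A replicate 3 or any single pho92Δ library.

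Outside the lists stood 831 of the 1199 called features. The other 368 were in a list, and the lists held 918 of the 5698 features tested. NRS1 had the lowest log2 fold change of the named features, at 4.56, 4.72 and 4.86 CPM in L35A and 19.8, 18.8 and 16.7 CPM in pho92Δ (-1.97, SE 0.374, adjusted p 0.00253). Unit1923, a feature the table gives by that name alone, had 68.7, 62.9 and 95.5 CPM in L35A and 219, 290 and 252 CPM in pho92Δ (-1.74, SE 0.347, adjusted p 0.00318). Of 27 such features tested 3 rose and 3 fell, and of 575 genes without a standard name 48 rose and 32 fell. Among all features tested 9.86% rose and 11.2% fell.

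**Figure D4:**
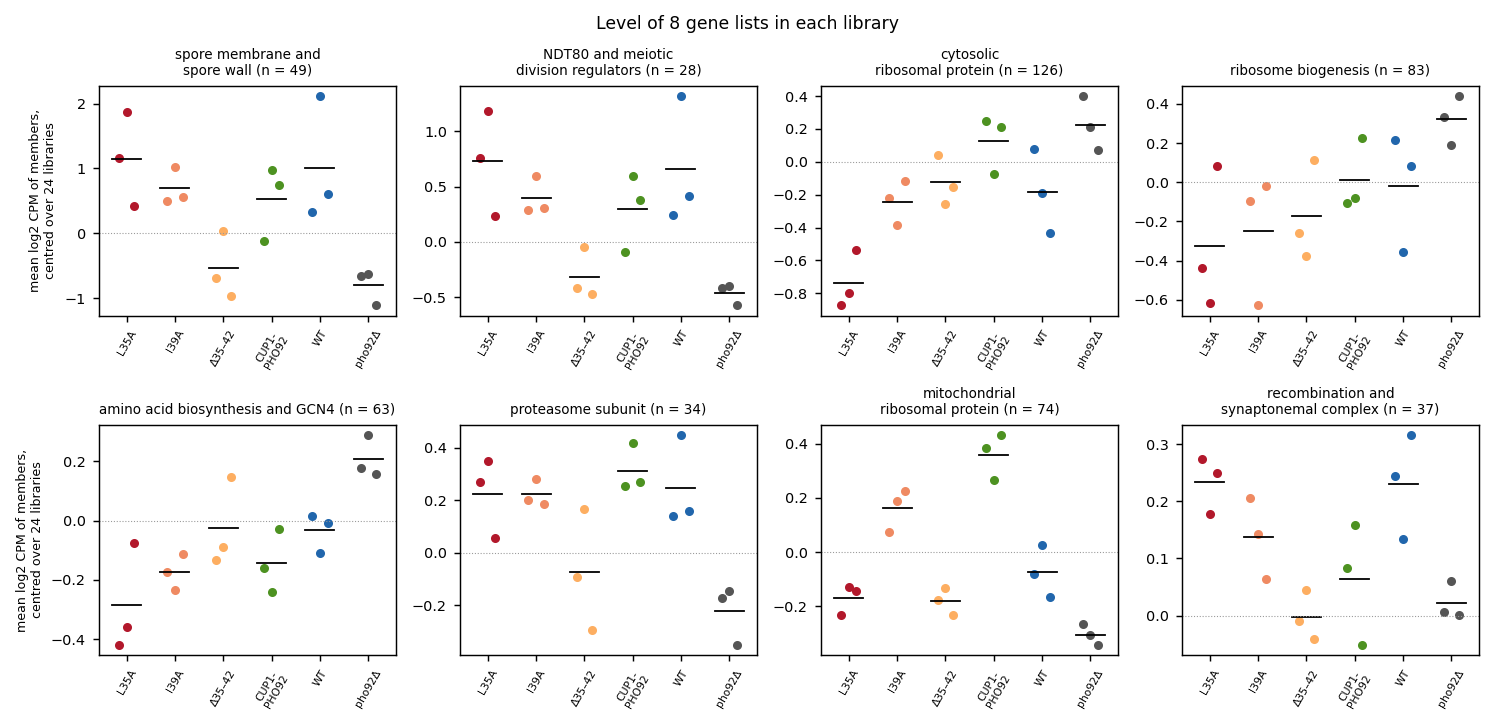
Mean log2 CPM of the members of 8 gene lists in each library (points, replicates 1 to 3 from left) and in each group (line), centred on the mean of all 24 libraries, for 6 groups on the horizontal axis. Replicate 2 of L35A is the highest L35A library for spore and division genes, all 3 L35A libraries are below the other 5 groups plotted for cytosolic ribosomal protein genes, and every CUP1-PHO92 and I39A library is above L35A for mitochondrial ribosomal protein genes. For cytosolic ribosomal protein genes W177A, which is not plotted, stood at -0.02, -0.89 and -0.70, beside -0.87, -0.80 and -0.54 in L35A.

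How far Pho92 L35A is from the wild-type protein made from the same promoter was asked with CUP1-PHO92. PHO92 RNA did not pass the test, at 11547, 10789 and 9771 CPM in L35A and 16418.5, 11669.6 and 9969.8 CPM in CUP1-PHO92 (-0.25, SE 0.267, adjusted p 0.534). Even so 1290 features were called, 22.6% of those tested, with 642 higher (11.3%) and 648 lower (11.4%); the median over all features was -0.01. Both cytosolic and mitochondrial ribosomal protein genes were lower in L35A. Of the cytosolic set 0 rose and 110 fell (median -0.90), and of the mitochondrial set 0 rose and 56 fell (median -0.53). This comparison and the one with pho92Δ share the L35A libraries, so their values are set side by side only.

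RPS3 had 45.9, 43.0 and 60.3 CPM in L35A, against 150.0, 105 and 137 CPM in CUP1-PHO92, and fell by 1.39 (SE 0.265, adjusted p 0.00138). RPL30 fell by 1.42 (SE 0.359, adjusted p 0.00831) and RPS12 by 1.34 (SE 0.273, adjusted p 0.00222). MAM33, a mitochondrial matrix protein, had 28.4, 29.9 and 32.3 CPM in L35A and 79.7, 66.7 and 67.1 CPM in CUP1-PHO92, and fell by 1.24 (SE 0.131, adjusted p 5.35e-05). Its 29.8, 31.9 and 29.1 CPM in pho92Δ overlapped L35A (-0.00, adjusted p 0.987). NAM9, higher in L35A than in pho92Δ, was lower in L35A than in CUP1-PHO92, where it had 134, 131 and 124 CPM (-0.53, adjusted p 0.000129). AXL2, a bud site protein, rose by 1.37 (SE 0.166, adjusted p 6.05e-05), at 85.3, 103 and 75.2 CPM in L35A and 24.3, 40.4 and 37.2 CPM in CUP1-PHO92, beside 69.5, 67.6 and 76.9 CPM in pho92Δ.

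Against CUP1-PHO92, 7 of 16 entry regulators, 11 of 28 acetate and gluconeogenesis genes, 8 of 21 trehalose and glycogen genes and 14 of 45 peroxisome genes rose, and in these lists 0, 0, 0 and 3 genes fell. Of 49 spore genes 5 rose and 0 fell (median 0.75), and of 28 division genes 2 rose and 2 fell (median 0.39). NDT80 stood at 0.66 (SE 0.472, adjusted p 0.330) and SPR2 at 0.92 (SE 0.855, adjusted p 0.465). Of 63 amino acid genes 1 rose and 3 fell (median -0.16), with HIS4 at -0.36 (SE 0.183, adjusted p 0.157) and LEU4 at 0.396 (SE 0.192, adjusted p 0.143). TRP1 differed between these groups, with 16.0, 16.5 and 16.3 CPM in L35A and 8.18, 5.599 and 8.91 CPM in CUP1-PHO92 (1.11, SE 0.208, adjusted p 0.00125), although the genotype labels of both place the construct at TRP1. The total was 707 without L35A replicate 1, 714 without CUP1-PHO92 replicate 3 and 853 with only the 6 libraries. With the axis covariate it was 1850 (937 higher, 913 lower). The cytosolic count was 73 without L35A replicate 1, and the mitochondrial count stayed between 44 and 56. The acetate count was 3 without CUP1-PHO92 replicate 3, 4 without L35A replicate 1, 6 without L35A replicate 2 and 7 without CUP1-PHO92 replicate 2. The trehalose count was 3 without CUP1-PHO92 replicate 3 and 4 without L35A replicate 1. The entry count was 2 without CUP1-PHO92 replicate 1 or CUP1-PHO92 replicate 3, 3 without L35A replicate 1 or L35A replicate 2, and 4 without L35A replicate 3. The peroxisome count was 7 without L35A replicate 1 or CUP1-PHO92 replicate 3 and 9 without CUP1-PHO92 replicate 2.

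The I39A comparison set alanine at position 35 beside alanine at position 39 in otherwise like constructs. Only 36 features were called, 0.632% of those tested, 6 higher (0.105%) and 30 lower (0.527%); 660 had an unadjusted p under 0.05. Of 74 mitochondrial ribosomal protein genes 0 rose, 10 fell and 64 did not pass (median -0.33), while of 38 respiratory chain genes 0 were called (median -0.0088). This count was 0 without L35A replicate 1, L35A replicate 2, I39A replicate 2 or I39A replicate 3 and with only the 6 libraries, 4 without I39A replicate 1, and 22 with DESeq2. COX23, a factor of cytochrome oxidase assembly, had 25.1, 25.8 and 25.9 CPM in L35A and 38.8, 44.3 and 37.98 CPM in I39A, and fell by 0.66 (SE 0.11, adjusted p 0.016). MAM33 fell by 0.73 (SE 0.131, adjusted p 0.0179), and DPC29, at 11.0, 10.3 and 17.6 CPM in L35A and 22.8, 24.7 and 24.8 CPM in I39A, fell by 0.89 (SE 0.192, adjusted p 0.0399). Picked from the rest after their values were seen, the import and assembly genes MAS1 (-0.43), TOM20 (-0.37), COX11 (-0.52) and ATP11 (-0.40) were also lower. Cytosolic ribosomal protein genes had a median of -0.51 with 0 called, and RPS3 stood at -0.90 (SE 0.263, adjusted p 0.144). SPR2 (0.77, SE 0.853, adjusted p 0.768) and NDT80 (0.57, SE 0.471, adjusted p 0.682) did not pass, which does not show that the substitutions act alike. The total was 1 without L35A replicate 1, I39A replicate 2 or I39A replicate 3, 3 without L35A replicate 2, 18 without I39A replicate 1 and 1 with only the 6 libraries, while DESeq2 called 103.

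Against Δ35–42, 3 features were called, 0.0527% of those tested, all lower in L35A, and 1017 had an unadjusted p under 0.05. YPS6, a yapsin protease of the cell surface, had 63.6, 68.7 and 65.2 CPM in L35A and 114, 140.0 and 125 CPM in Δ35–42, and fell by 0.94 (SE 0.113, adjusted p 0.000222). COS12 had 3.99, 7.49 and 3.45 CPM in L35A and 17.1, 18.1 and 18.2 CPM in Δ35–42, and fell by 1.85 (SE 0.224, adjusted p 0.000222). YGL262W, named after its value was seen, is by its systematic name next to COS12 (YGL263W), and fell by 1.06 (SE 0.175, adjusted p 0.0115).

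YPS6 and COS12 set the groups apart in a way most genes did not. YPS6 had 59.1, 61.7 and 65.7 CPM in CUP1-PHO92, 121, 126 and 125 CPM in I39A and 116, 106 and 122 CPM in pho92Δ, so L35A lay near CUP1-PHO92 (0.08, SE 0.112, adjusted p 0.629) and fell against I39A by 0.92 (SE 0.113, adjusted p 0.000522) and against pho92Δ by 0.80 (SE 0.112, adjusted p 0.000394). COS12 had 7.11, 7.05 and 4.86 CPM in CUP1-PHO92, 10.3, 13.5 and 13.5 CPM in I39A and 12.1, 14.0 and 10.8 CPM in pho92Δ. L35A fell against pho92Δ by 1.31 (SE 0.224, adjusted p 0.00134). Of the 31-base words of YPS6, 14.5% recur elsewhere in R64, and COS12 belongs to a subtelomeric family whose copies can share reads.

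Many features lay just short of the threshold against Δ35–42. The count was 386 (233 higher, 153 lower) with the replicate block, 366 (190 higher, 176 lower) with DESeq2, 246 without the 2 libraries with another batch letter and 379 without L35A replicate 3, and each of these held the 3 features. SPR2, for example, had 17.8, 64.3 and 9.49 CPM in Δ35–42 and stood at 3.44 (SE 0.94, adjusted p 0.068). Cytosolic ribosomal protein genes had a median of -0.63 with 0 called in the 24-library fit, 53 with the block, 63 without the other batch letter, 66 with DESeq2 and 50 without L35A replicate 3. They took 0.821%, 0.661% and 0.726% of the counts in Δ35–42 and 0.674%, 0.603% and 0.771% in I39A, all above the 3 L35A libraries.

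For scale, the other groups were set against pho92Δ in the same fit; these comparisons share the pho92Δ libraries with that of L35A. CUP1-PHO92 had 1972 called features (34.6%), 959 higher (16.8%) and 1013 lower (17.8%). I39A had 1187 (20.8%), 590 higher (10.4%) and 597 lower. The deletion Δ35–42 had 6 (0.105%), 3 higher (0.0527%) and 3 lower (0.0527%). Spore genes had medians of 1.49 in CUP1-PHO92, 1.59 in I39A and 0.38 in Δ35–42, with 29, 28 and 0 of 49 higher. Proteasome genes had medians of 0.56, 0.43 and 0.17 in these groups, with 28, 24 and 0 of 34 higher. In the same order, cytosolic ribosomal protein genes had medians of -0.08, -0.43 and -0.34, with 8, 35 and 0 of 126 lower. Ribosome biogenesis genes had medians of -0.32, -0.55 and -0.47, with 16, 33 and 0 of 83 lower. Amino acid genes had medians of -0.27, -0.38 and -0.18, with 24, 23 and 0 of 63 lower.

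**Figure D5:**
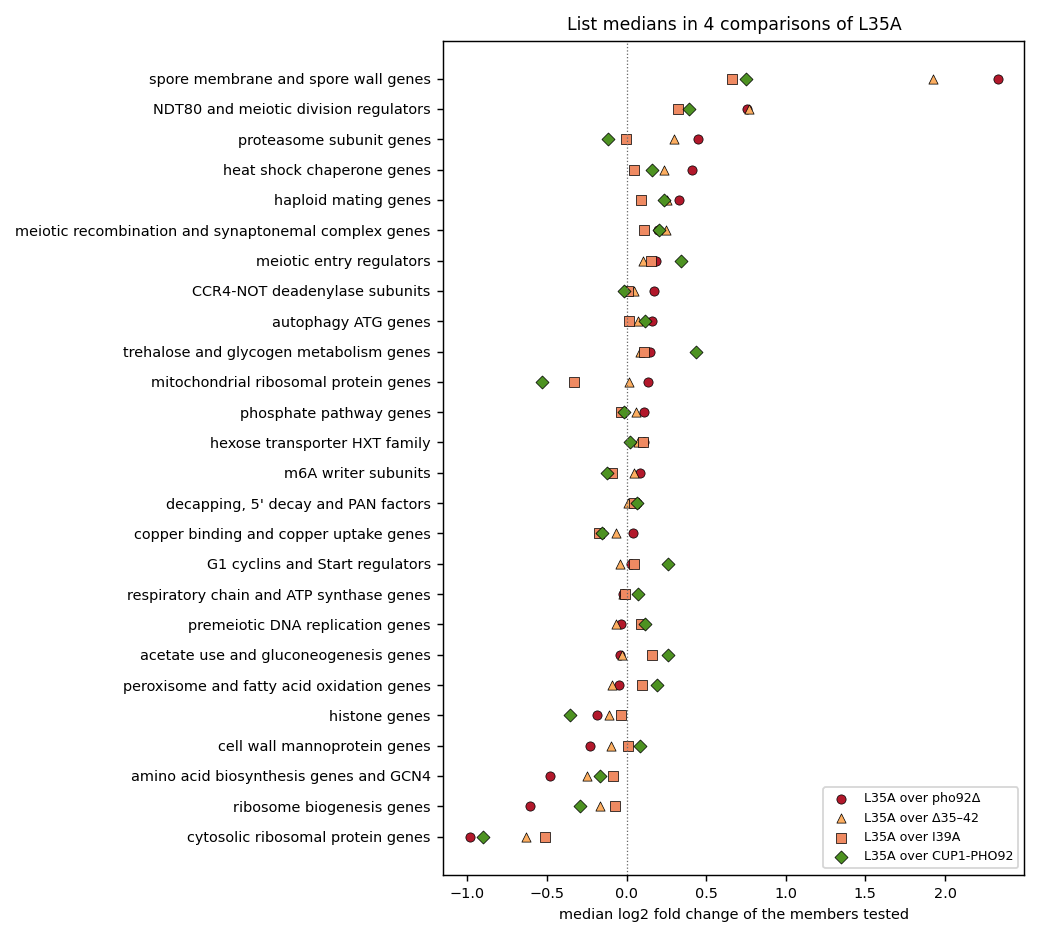
Median log2 fold change (horizontal axis) of the tested members of 26 gene lists (rows) for L35A over pho92Δ (circles), Δ35–42 (triangles), I39A (squares) and CUP1-PHO92 (diamonds); the 4 comparisons share the L35A libraries. Cytosolic ribosomal protein genes have negative medians in all 4 (-0.98, -0.63, -0.51 and -0.90 in that order), while mitochondrial ribosomal protein genes are at 0.14 over pho92Δ and -0.53 over CUP1-PHO92.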

How the data were processed

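Gene counts are whole numbers as the authors deposited them, 1 table for 24 libraries. STAR 2.7.10a, RSEM 1.3.1 and DESeq2 1.48.1 are named in the submitters' processing notes without roles; the genome build and strand setting are not given in the sources used here. Libraries were assigned by title. From the counts, all 24 libraries were fitted together with edgeR 4.0.16 (limma 3.58.1, R 4.3.3): filterByExpr kept 5698 of 6157 features, TMM scaling, quasi-likelihood tests, Benjamini-Hochberg adjustment, threshold 0.05. Log2 CPM used a prior count of 2. DESeq2 1.42.0 and other settings were alternatives. The scripts were tested on simulated data. Members and lists were chosen with earlier results of these data known. Named genes were PHO92, TRP1, the 12 highest and 12 lowest log2 fold changes among called features with at least 10 CPM over the 6 libraries and groups that do not overlap, up to 4 called members of each list with the smallest p, 10 regulators, and, in each other comparison, the 4 largest changes by the same rule; further list members and stage markers are examples chosen after their values were seen. Replicate numbers may pair the samples, which these values do not settle. Same-numbered L35A and pho92Δ libraries deviated from their group means with correlations of 0.169, 0.233 and 0.447. For libraries of unlike number the correlations ran from -0.465 to 0.338. The main fit left pairing out, and the replicate block took it in. Sequences are RefSeq R64; of 6157 features 5620 matched it by name. No pho92Δ fold is given for PHO92. Some results are not reported here.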

Additional observations from a re-analysis of the deposited data

Results flagged for a closer look

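In the difference from pho92Δ itself, L35A and CUP1-PHO92 differed in 1290 features, by a test of L35A over CUP1-PHO92 in the joint fit. By the same test L35A and I39A differed in 36 features, and L35A and Δ35–42 in 3 features, YPS6, COS12 and YGL262W. These tests are the direct comparisons given above.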

How the results depend on the processing

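Against pho92Δ the 1199 calls became 56 with the within-group axis covariate, 285 at an absolute log2 fold change of at least 1, and 296 to 1514 in leave-one-out fits. Against CUP1-PHO92 the 1290 became 1850 with the axis covariate, 1481 with DESeq2 and 853 with only the 6 libraries. They became 65 at that fold change and 707 to 1269 in leave-one-out fits. Against I39A the 36 became 12 without the low-count filter, 103 with DESeq2, 97 with the axis covariate, 1 with only the 6 libraries, 1 at that fold change and 1 to 53 in leave-one-out fits. Against Δ35–42 the 3 became 366 with DESeq2, 246 without the other batch letter, 5 with the axis covariate, 2 to 379 in leave-one-out fits, and 0 in edgeR with only the 6 libraries, where 880 had an unadjusted p under 0.05. The cause of these differences was not tested; leave-one-out fits hold fewer samples. With the replicate block, in which replicate numbers pair the libraries, the counts were 1562, 1616, 51 and 386 in the order pho92Δ, CUP1-PHO92, I39A, Δ35–42; all 123 named genes kept their side of the threshold, and beside the list counts given above it called 4 hexose transporter genes lower. RLE scaling gave 1202, 1300, 31 and 3. Log2 fold changes that turned sign were SLZ1 (-0.033) and STE4 (-0.0071), both with the axis covariate, where 29 of 123 named genes kept their side of the threshold and 92 lost it. Counts limit precision at low levels: 3 counts equal 0.121 to 0.151 CPM in L35A and 0.115 to 0.159 CPM in pho92Δ, counting error only.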
